A study of Mus musculus with 6 samples.

Results

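Transcripts of glycolysis and of the cellular response to low oxygen were measured in cells of mesenteric fat, in the stromal vascular fraction. That fraction is what collagenase frees from fat once floating adipocytes are set aside: progenitors, macrophages, lymphocytes and vascular cells. The set holds 39 genes, chosen from a list of glycolytic enzymes, their transporters and regulators, and genes of the hypoxia-inducible factor (HIF) pathway, out of 37074 genes and transcripts on the array. Probes were tied to genes through their RefSeq accessions. All 39 had a probe, and all 39 were well above background on each of the 6 arrays, so none was lost to the filter on dim probes. The propolis group was 3 samples from male C57BL/6JHamSlc-ob/ob mice that received Brazilian propolis, a resinous bee product, as an ethanol extract, injected intraperitoneally over 12 weeks with 2 doses of 100 mg/kg each week. The vehicle group was 3 samples from mice of the same strain and sex given the vehicle, which held DMSO and ethanol at low concentration, for the same 12 weeks. Both groups carry the ob mutation of the leptin gene and are obese, and no lean mice were part of the comparison. The samples are labelled as biological replicates, with no number of mice given for any of them, and the p-values measure the spread between samples only. In such bulk samples, fewer cells of a type and less RNA per cell cannot be told apart.

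Glycolysis splits glucose into pyruvate in the cytosol. When oxygen is short, or in activated immune cells, pyruvate is turned into lactate, which monocarboxylate transporters carry out of the cell. HIF is the transcription factor that raises many of these genes in low oxygen. Its alpha subunits are hydroxylated by oxygen-dependent prolyl hydroxylases and then marked for breakdown by the VHL protein, so they accumulate when oxygen falls. In obese fat, adipose hypoxia and glycolytic macrophages are both well described.

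Values are log2 intensities of a 1-colour array relative to the array's 75th percentile, and differences are propolis minus vehicle on that log2 scale. Levels of different genes come from different probes and are not compared with each other. None of the 39 genes passed the limma test at an adjusted p under 0.05, against 0.834% of the 25777 genes and transcripts tested (0.722% higher and 0.113% lower in propolis). At an unadjusted p under 0.05 there were 9 genes, 7 higher and 2 lower in propolis, or 23.1% of the set against 11.7% of all genes tested (7.24% higher and 4.48% lower). The 2 groups of arrays did not overlap for 10 genes, 7 higher and 3 lower, or 25.6% against 17.4% (10.8% higher and 6.62% lower). Mean levels were higher in propolis for 22 genes and lower for 17, while 49.6% of all genes had a higher mean. The median difference was 0.06 in the set and -0.004 over all genes. All 39 genes carry a symbol, and among the 15774 tested genes with one, 1.07% passed, 13.8% had an unadjusted p under 0.05, 20.2% did not overlap, 54.0% had a higher mean and the median difference was 0.03. The lowest adjusted p belonged to Ldhb, the B subunit of lactate dehydrogenase, with a mean 2.17-fold higher in propolis (adjusted p = 0.0903). Half-widths of the 95% intervals, which are not adjusted for the number of genes, had a median of 0.62. Passing after adjustment took more than that, since Ldhb at a difference of 1.12 and Slc16a3 at 1.00 did not pass.

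**Figure D1:**
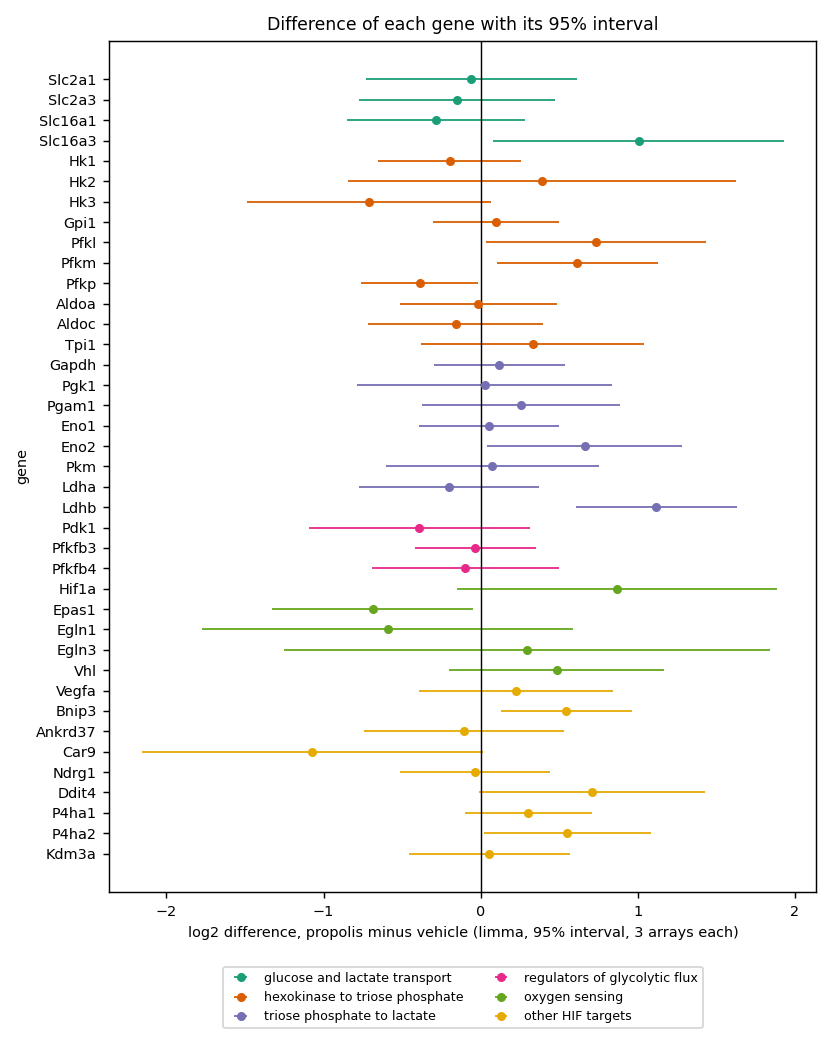
Difference of each of the 39 genes (points, log2, propolis minus vehicle) with its limma 95% interval (lines), 3 arrays in each group, coloured by role. Intervals of 9 genes lie wholly on one side of 0, and none of the 39 passed after adjustment over all 25777 genes.

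Marker genes of cell types, both of the fraction and of other tissue, took different levels on different arrays. Vehicle 2 held high levels of 7 pancreatic acinar markers, with a mean of 4.10 against -3.96 to -2.69 on the other arrays, and of 6 B cell markers (1.30 against -2.90 to -0.43). Vehicle 3 held high levels of 10 intestinal epithelial markers (4.98 against -3.30 to -0.12). Mean levels of 10 adipocyte markers ran from 0.88 to 1.74 in propolis and from 1.68 to 2.61 in vehicle, and all 10 had lower means in propolis. All 8 endothelial markers also had lower means in propolis, with list means of 1.34 to 2.47 in propolis and 2.27 to 2.88 in vehicle. Mesothelial markers had higher means in propolis for 7 of 8, with list means of 1.65 to 2.59 in propolis and -0.37 to 1.46 in vehicle. The 1.46 belongs to vehicle 3, the array with high intestinal markers. There the keratin genes Krt19 and Krt8 measured 5.24 and 4.74, while the other mesothelial markers ran from -2.46 to 2.69. Besides the B cells and endothelium above, the fraction should hold fibroblasts, progenitors and macrophages. The 8 fibroblast and progenitor markers averaged 6.19 to 6.41 in propolis and 5.98 to 6.10 in vehicle. The 9 pan-macrophage markers averaged 3.61 to 3.82 in propolis and 3.30 to 3.74 in vehicle. All 7 T cell markers had lower means in propolis, with list means of 0.67 to 1.58 in propolis and 0.95 to 2.62 in vehicle, the highest on vehicle 2. Neutrophil markers averaged 0.02 to 0.82 in propolis and -0.99 to 0.87 in vehicle, and smooth muscle and pericyte markers 0.74 to 2.56 in propolis and 0.93 to 2.50 in vehicle. The part of these cells in any result below was not tested. Slide 1 carried the arrays numbered 1 and 2 of each group, and slide 2 the arrays numbered 3.

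**Figure D2:**
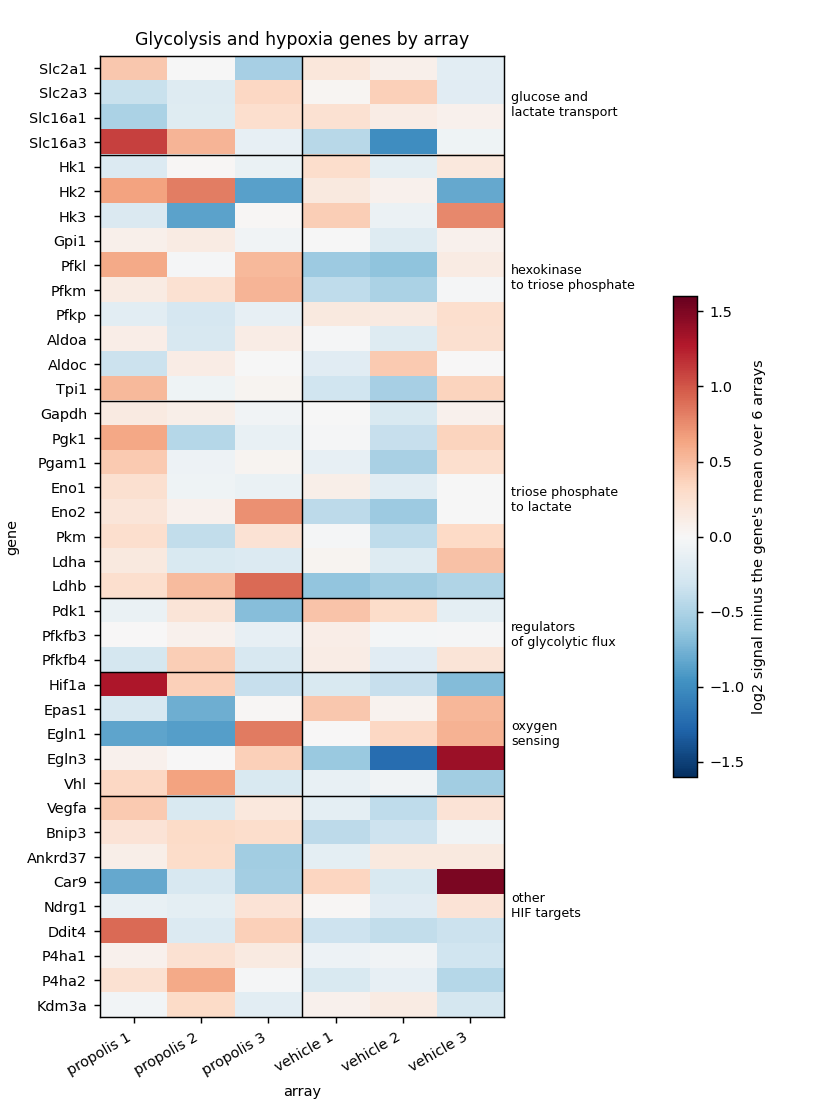
Level of each of the 39 genes on each array as the log2 difference from that gene's mean over the 6 arrays (colour), with the 3 propolis arrays left and the 3 vehicle arrays right. Ldhb is above its mean on the 3 propolis arrays and below it on the 3 vehicle arrays, while Tpi1, Pgk1 and Pgam1 are highest on propolis 1, Pkm and Ldha highest on vehicle 3, and Tpi1, Gapdh, Pgam1, Eno1, Pkm and Gpi1 lowest on vehicle 2.

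Uptake of glucose and release of lactate were read through 4 transporter genes. Slc16a3 encodes the monocarboxylate transporter that exports lactate from glycolytic cells, and Slc16a1 a related transporter that carries lactate both ways. Slc16a3 measured 3.31, 2.76 and 2.08 in the propolis arrays, against 1.77, 1.22 and 2.15 in the vehicle arrays. Propolis 1 was the highest array and vehicle 2 the lowest, and the groups overlapped because propolis 3 lay below vehicle 3. The mean was 2.01-fold higher in propolis, a difference of 1.00 (SE 0.384, limma adjusted p = 0.385), and its second probe gave 1.05. Slide 1 alone gave 1.54 and slide 2 -0.07. Slc16a1 differed by -0.28 (95% interval -0.85 to 0.28). Glucose enters these cells through the products of Slc2a1 and Slc2a3, the ubiquitous and the high-affinity facilitative transporters. Their differences were -0.06 (-0.73 to 0.61) and -0.15 (-0.77 to 0.47), and both pairs of groups overlapped.

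Hexokinases trap glucose as glucose 6-phosphate. Hk3, the isoenzyme of myeloid cells, measured 0.82, 0.20 and 1.08 in the propolis arrays, against 1.44, 0.96 and 1.83 in the vehicle arrays. Propolis 2 was lowest and vehicle 3 highest, and propolis 3 lay above vehicle 2. It differed by -0.71 (SE 0.323, limma adjusted p = 0.473), or by -0.46 without propolis 2, with -0.69 on slide 1 and -0.75 on slide 2. Hk1, the housekeeping form, differed by -0.20, and Hk2, the inducible form of insulin-responsive tissue, by 0.39. The arrays of slide 2 were the lowest for Hk2, at -0.27 in propolis 3 and -0.22 in vehicle 3, so its spread within a group was wide (interval -0.84 to 1.63).

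Phosphofructokinase commits sugar to glycolysis, and its subunits come from 3 genes named for liver (Pfkl), muscle (Pfkm) and platelet (Pfkp). The first pair had higher means in propolis and Pfkp a lower one. Pfkl measured 0.57, -0.06 and 0.48 in the propolis arrays, against -0.61, -0.68 and 0.09 in the vehicle arrays. It overlapped between groups through propolis 2 and vehicle 3, and differed by 0.73 (SE 0.291, limma adjusted p = 0.403). Pfkm, whose groups did not overlap, measured 1.33, 1.44 and 1.75 in the propolis arrays, against 0.80, 0.70 and 1.18 in the vehicle arrays, a mean 1.53-fold higher in propolis. The Pfkm difference was 0.62 (SE 0.213, limma adjusted p = 0.330), with 0.64 on slide 1 and 0.57 on slide 2. Pfkp measured 1.95, 1.85 and 1.99 in the propolis arrays, against 2.28, 2.27 and 2.40 in the vehicle arrays. Each propolis array lay below each vehicle array, and the mean was 1.31-fold lower in propolis, a difference of -0.39 (SE 0.154, limma adjusted p = 0.405). Its second probe gave -0.42.

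Grouped here after their values were seen, Gpi1, Aldoa, Tpi1, Gapdh, Pgk1, Pgam1, Eno1, Pkm and Ldha are widely expressed enzymes between glucose 6-phosphate isomerase and lactate dehydrogenase A. The group leaves out phosphofructokinase, Eno2 and Ldhb, whose differences were larger, so its narrow range follows in part from the choice. The 9 differences ran from -0.20 for Ldha to 0.33 for Tpi1, and the lowest limma adjusted p was 0.750. Intervals reached from -0.79 to 1.04, too wide to show that a difference was small. On slide 1 all 9 were higher in propolis, by 0.04 to 0.65, and on slide 2 all 9 were lower, by values from -0.68 to -0.08. Of the 39 genes, 17 (43.6%) were higher in propolis on slide 1 and lower on slide 2, against 18.8% of all genes tested. The reverse held for 3 (7.69%), against 28.1% of all genes, and 48.7% had the same direction on both slides, against 53.1%, so a change of direction between slides was about as frequent in the set as over all genes. Slide 2 holds 1 array of each group. Of 3 examples, chosen after their values were seen, Tpi1, triose phosphate isomerase, measured 5.51, 4.92 and 5.03 in the propolis arrays, against 4.67, 4.45 and 5.34 in the vehicle arrays. Pkm, the muscle and leukocyte pyruvate kinase, measured 4.87, 4.21 and 4.83 in the propolis arrays, against 4.58, 4.19 and 4.92 in the vehicle arrays. In both, propolis 1 and vehicle 3 were high and vehicle 2 was the lowest. Pgk1, phosphoglycerate kinase and a HIF target, measured 5.28, 4.20 and 4.54 in the propolis arrays, against 4.64, 4.29 and 5.02 in the vehicle arrays, and its lowest array was propolis 2. Vehicle 2 was the lowest array for 6 of the 9 enzymes, propolis 1 the highest for 5 and vehicle 3 the highest for 3. Over the 39 genes, vehicle 2 was the lowest array for 14, or 35.9%, against 15.6% of all genes tested. Vehicle 2 is the array with high pancreatic and B cell markers and vehicle 3 that with high intestinal markers, and their part in these values was not tested. Gapdh had 7 probes with differences from -0.22 to 0.32, Ldha had 3, all between -0.33 and -0.20, and Gpi1 had 3, all between 0.08 and 0.14. Several of these genes have processed copies in the mouse genome, and whether their probes also bind transcripts of such copies was not tested. Aldoc, the brain form of aldolase, differed by -0.16.

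**Figure D3:**
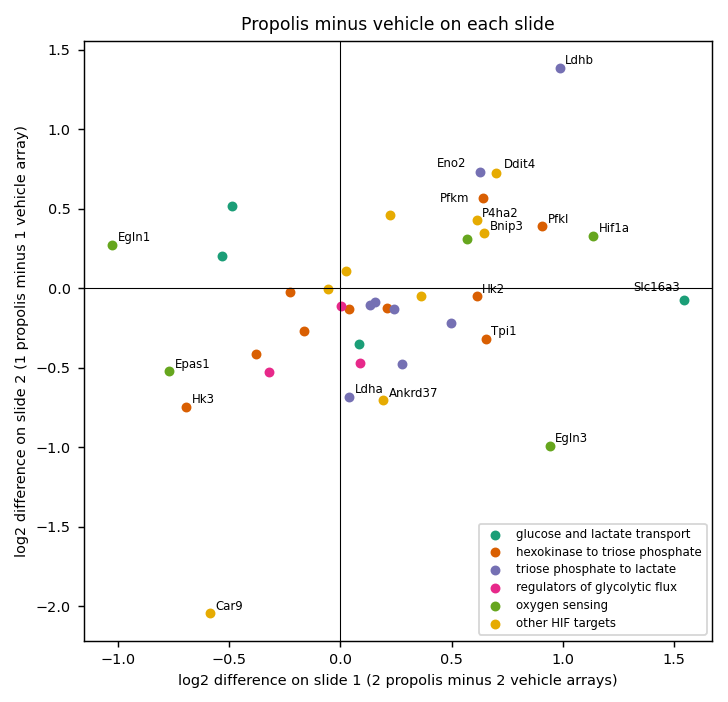
Difference of each of the 39 genes on slide 1 (horizontal axis, log2, 2 propolis minus 2 vehicle arrays) and on slide 2 (vertical axis, log2, 1 propolis minus 1 vehicle array), coloured by role. Points right of and below the crossing lines are the 17 genes higher in propolis on slide 1 and lower on slide 2, and Ldhb is the point highest on the vertical axis.

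The gene nearest to the threshold was Ldhb. Lactate dehydrogenase is a tetramer of A and B subunits. The A subunit, from Ldha, favours making lactate from pyruvate, while B-rich enzyme, abundant in heart, is associated with using lactate. Ldhb measured 2.23, 2.47 and 2.88 in the propolis arrays, against 1.33, 1.41 and 1.49 in the vehicle arrays. All propolis arrays lay above all vehicle arrays, and the vehicle arrays lay close together. The means were 2.53 ± 0.325 in propolis and 1.41 ± 0.0787 in vehicle (SD, n = 3 each), a difference of 1.12 (SE 0.212, limma adjusted p = 0.0903) with a 95% interval of 0.61 to 1.63. The difference was 0.98 on slide 1 and 1.39 on slide 2, and ran from 0.94 to 1.27 with 1 array left out, at adjusted p from 0.101 to 0.334. With normexp background correction Ldhb did pass, at a difference of 1.14 (limma adjusted p = 0.0430), and its adjusted p ran from 0.0430 to 0.842 over 18 alternatives. Its partner Ldha measured 7.08, 6.69 and 6.71 in the propolis arrays, against 6.97, 6.72 and 7.39 in the vehicle arrays, with overlapping groups. The log2 ratio of Ldhb to Ldha signal within each array was -4.85, -4.21 and -3.83 in the propolis arrays, against -5.64, -5.31 and -5.90 in the vehicle arrays. That ratio was 2.49-fold higher in propolis without overlap, and with either of the other Ldha probes the change was 1.38 or 1.45. For enolase, the ratio of Eno2 to Eno1 was 1.52-fold higher in propolis, but its groups overlapped. Eno2, the neuronal form, measured 1.23, 1.12 and 1.77 in the propolis arrays, against 0.63, 0.46 and 1.04 in the vehicle arrays. Its groups did not overlap, the closest arrays being propolis 2 and vehicle 3, and it differed by 0.66 (SE 0.257, limma adjusted p = 0.392), while the ubiquitous Eno1 differed by 0.06.

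Upstream sequence is shown for the 2 lactate dehydrogenase genes because their ratio differed without overlap, and because Ldha is a textbook HIF target. The windows are the 250 bases before an annotated start, from RefSeq on GRCm38.p6, written 5′ to 3′ along the gene's strand. The core of the HIF response element is ACGTG or GCGTG. Capitals mark ACGTG or its reverse complement CACGT, so that CACGTG is a match on both strands. GCGTG is not marked and is counted below. The Ldhb window lies on the minus strand at chr6:142507958-142508207 and the Ldha window on the plus strand at chr7:46845554-46845803.
Ldhb: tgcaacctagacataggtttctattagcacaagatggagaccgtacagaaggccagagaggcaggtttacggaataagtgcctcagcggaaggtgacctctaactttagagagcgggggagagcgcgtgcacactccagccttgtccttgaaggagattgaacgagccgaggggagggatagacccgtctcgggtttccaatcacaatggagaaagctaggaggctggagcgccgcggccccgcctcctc
Ldha: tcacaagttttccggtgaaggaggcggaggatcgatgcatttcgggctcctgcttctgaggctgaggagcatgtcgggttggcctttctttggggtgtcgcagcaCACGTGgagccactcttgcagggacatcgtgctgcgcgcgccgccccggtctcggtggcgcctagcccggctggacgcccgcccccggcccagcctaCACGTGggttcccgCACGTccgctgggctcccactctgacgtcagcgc

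The Ldhb window held 0 matches to ACGTG, and this Ldha window held 5, counted on both strands, which fall at 3 places. GCGTG was matched 1 time in the Ldhb window and 0 times in this Ldha window. The table lists a second Ldha window, which held 0 matches to ACGTG and 1 to GCGTG. Of the 39 genes, 36 had a window in the table, all but Slc2a3, Epas1 and Ndrg1. Among these, 22 held ACGTG in at least 1 window, or 61.1%, against 18.5% of the 27025 genes in the table. Counted by window, it was 48.1% of 52 against 16.6% of 32851. The set was chosen in part as genes of the HIF pathway, so a higher share follows from the choice and is no independent evidence. GCGTG, read on both strands and able to overlap ACGTG, was held by 63.9% of the 36 and 30.9% of all. Median GC content was 61.9% in the set and 52.4% in the table, and the motifs are rich in G and C. The genes with ACGTG had a median difference of 0.15 and the 14 without it one of 0.08. These matches describe letters in a window and are not measured binding.

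To set related genes against each other without regard to array scaling, the log2 ratio of the signals of 2 genes was formed within each array for 15 pairs from the same family. The ratio itself depends on the 2 probes, so only its difference between groups was read. With 3 arrays against 3, an exact two-sided permutation test cannot give a p below 0.1, and the smallest p adjusted over the 15 pairs was 0.375. The ratio did not overlap between groups for 4 pairs. Besides Ldhb to Ldha, these were Pfkl to Pfkp, Pfkm to Pfkp and Hif1a to Epas1, each with an exact permutation p of 0.1. Were the arrays exchangeable, a ratio would separate the groups fully with a probability of 0.1. In these arrays 17.4% of all single genes tested, and 20.2% of those with a symbol, did not overlap. The share of such ratios over other pairs of genes was not computed, so the 4 of 15 pairs have no matched background. Pfkl to Pfkp and Pfkm to Pfkp also share the same Pfkp probe, so they are not independent. The Pfkm to Pfkp ratio was -0.62, -0.41 and -0.24 in the propolis arrays, against -1.49, -1.57 and -1.22 in the vehicle arrays. This is 2.01-fold higher in propolis, and the spread within either group was small beside it, with an SD of 0.19 in each. The Pfkl to Pfkp ratio was 2.18-fold higher. With the second Pfkp probe, Pfkm to Pfkp still did not overlap and Pfkl to Pfkp did. The other 11 pairs overlapped, among them Slc16a3 to Slc16a1 and Eno2 to Eno1, with ratios 2.44-fold and 1.52-fold higher in propolis.

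**Figure D4:**
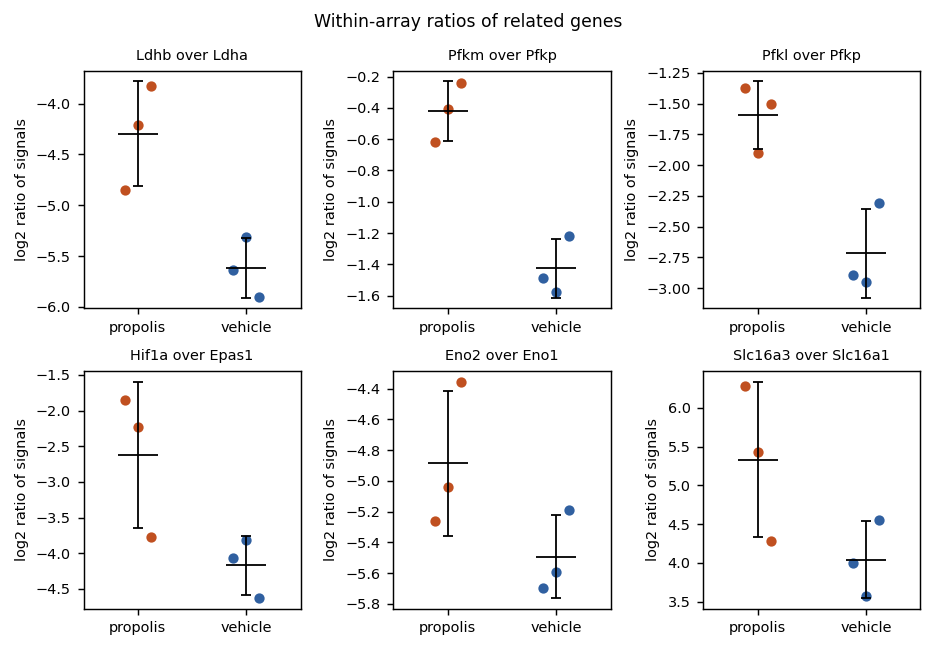
Log2 ratio of the signals of 2 related genes within each array (points), with the mean and SD of 3 arrays (black), for propolis (left) and vehicle (right) in each panel. The groups are apart for Ldhb over Ldha, Pfkm over Pfkp, Pfkl over Pfkp and narrowly for Hif1a over Epas1, and overlap for Eno2 over Eno1 and Slc16a3 over Slc16a1.

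Enzymes that set the flux had overlapping groups. Pfkfb3 and Pfkfb4 make fructose 2,6-bisphosphate, which activates phosphofructokinase. Pdk1 inhibits pyruvate dehydrogenase, the mitochondrial enzyme that turns pyruvate into acetyl-CoA. Their differences were -0.03 for Pfkfb3, -0.10 for Pfkfb4 and -0.39 for Pdk1. The narrowest of these intervals was that of Pfkfb3, -0.42 to 0.35, and Pfkfb4 had a second probe that was above background on none of the arrays.

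Among the oxygen-sensing genes, Hif1a and Epas1 encode the alpha subunits of the 2 main HIF forms, the second being prominent in endothelium and adipocytes. Hif1a measured 3.61, 2.69 and 1.95 in the propolis arrays, against 2.08, 1.95 and 1.62 in the vehicle arrays. Propolis 1 stood far above the rest, and propolis 3 lay below vehicle 1 and level with vehicle 2. The difference of 0.87 (SE 0.422, limma adjusted p = 0.511) had an interval of -0.15 to 1.89, and without propolis 1 it was 0.44. Epas1 measured 5.45, 4.93 and 5.73 in the propolis arrays, against 6.15, 5.77 and 6.25 in the vehicle arrays. The groups did not overlap, although propolis 3 and vehicle 2 were close, and the mean was 1.61-fold lower in propolis, a difference of -0.69 (SE 0.265, limma adjusted p = 0.391). Its 3 probes disagreed, since the others gave -0.47 and 0.28. All 8 endothelial and all 10 adipocyte markers also had lower means in propolis, as given above, and their part in the Epas1 value was not tested. The Hif1a to Epas1 ratio was -1.84, -2.23 and -3.78 in the propolis arrays, against -4.07, -3.81 and -4.63 in the vehicle arrays, so propolis 3 and vehicle 2 all but met, and with either other Epas1 probe the groups overlapped.

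HIF hydroxylation and breakdown were read through 3 genes. Egln1 encodes the main oxygen-sensing prolyl hydroxylase and measured -3.52, -3.55 and -1.84 in the propolis arrays, against -2.67, -2.34 and -2.11 in the vehicle arrays. Both slide 1 propolis arrays were the lowest and propolis 3 the highest, and the difference of -0.59 (SE 0.489, limma adjusted p = 0.729) changed sign between slides (-1.03 and 0.28). It was -0.32 without propolis 1, -0.30 without propolis 2 and -1.16 without propolis 3. Egln3, a hydroxylase that is itself induced by hypoxia, ranged from -3.15 in vehicle 2 to -0.57 in vehicle 3, so its difference of 0.30 had the widest interval of the set (-1.25 to 1.84). Vhl, the recognition subunit of the ubiquitin ligase, differed by 0.48 (-0.20 to 1.17).

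The other HIF targets took both directions, with 6 of 9 means higher in propolis. Bnip3 encodes a mitochondrial protein that promotes mitophagy. It measured 3.53, 3.62 and 3.59 in the propolis arrays, against 2.89, 2.97 and 3.25 in the vehicle arrays. All propolis arrays lay above all vehicle arrays and close to each other. The mean was 1.46-fold higher in propolis, a difference of 0.55 (SE 0.172, limma adjusted p = 0.281), and the other probes gave 0.49 and 0.69. Ddit4, a stress-induced inhibitor of mTOR signalling, measured 5.21, 4.08 and 4.68 in the propolis arrays, against 3.97, 3.91 and 3.96 in the vehicle arrays. The groups did not overlap, propolis 1 was highest, and the difference was 0.71 (SE 0.297, limma adjusted p = 0.435). Without propolis 1 it was 0.43. P4ha1 and P4ha2 encode catalytic subunits of collagen prolyl hydroxylase. P4ha2 measured 2.71, 3.08 and 2.45 in the propolis arrays, against 2.23, 2.34 and 2.02 in the vehicle arrays, a mean 1.46-fold higher in propolis without overlap. The P4ha2 difference was 0.55 (SE 0.220, limma adjusted p = 0.410). P4ha1 also did not overlap, at 0.30 (-0.10 to 0.71).

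Car9 encodes a cell-surface carbonic anhydrase that is strongly induced by hypoxia in tumours and is also made in gut epithelium. It measured -1.64, -1.07 and -1.36 in the propolis arrays, against -0.48, -1.06 and 0.68 in the vehicle arrays. Vehicle 3 was the highest array and vehicle 2 lay almost level with propolis 2, without overlap. The mean was 2.10-fold lower in propolis, a difference of -1.07 (SE 0.451, limma adjusted p = 0.435). Without vehicle 3, the array with high intestinal markers, the difference was -0.59 (limma adjusted p = 0.437, and 0.267 to 0.978 over 18 alternatives). Vegfa, the main angiogenic factor induced by HIF, differed by 0.23 (-0.39 to 0.85), and its second probe by -0.005. Ndrg1, Ankrd37 and the histone demethylase gene Kdm3a differed by -0.04, -0.11 and 0.05.

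Upstream windows are shown for Bnip3, Slc16a3 and Car9, as targets whose means lay higher (the first pair) or lower (Car9) in propolis, with capitals as above. The Bnip3 window lies on the minus strand at chr7:138909507-138909756, that of Slc16a3 on the plus strand at chr11:120948817-120949066 and that of Car9 on the plus strand at chr4:43506776-43507025. ACGTG was matched 2 times for Bnip3, as 1 CACGTG, 2 times for Slc16a3 and 1 time for Car9. GCGTG was matched 3 times for Bnip3 and 0 times for Slc16a3 and for Car9.
Bnip3: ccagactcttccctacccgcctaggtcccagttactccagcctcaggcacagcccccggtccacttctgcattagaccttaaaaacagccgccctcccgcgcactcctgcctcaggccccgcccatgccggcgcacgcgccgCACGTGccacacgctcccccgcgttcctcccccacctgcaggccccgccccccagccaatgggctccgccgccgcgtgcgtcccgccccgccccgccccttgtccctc
Slc16a3: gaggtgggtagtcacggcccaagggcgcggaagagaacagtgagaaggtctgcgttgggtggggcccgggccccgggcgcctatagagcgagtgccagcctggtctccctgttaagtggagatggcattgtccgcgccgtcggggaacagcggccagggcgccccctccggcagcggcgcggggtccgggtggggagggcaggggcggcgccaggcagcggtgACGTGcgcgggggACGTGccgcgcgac
Car9: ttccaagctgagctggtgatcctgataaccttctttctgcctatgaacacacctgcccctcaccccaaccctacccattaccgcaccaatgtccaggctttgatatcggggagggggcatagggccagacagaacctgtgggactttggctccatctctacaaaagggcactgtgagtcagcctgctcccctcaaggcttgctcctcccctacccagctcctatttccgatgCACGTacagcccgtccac

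By role, the median deviation from each gene's mean ran from 0.09 to 0.25 over the propolis arrays and from -0.18 to -0.06 over the vehicle arrays for the 9 other HIF targets. For the 8 enzymes from triose phosphate to lactate it ran from -0.08 to 0.26 in propolis and from -0.39 to 0.17 in vehicle, and for the 10 from hexokinase to triose phosphate from 0.001 to 0.09 in propolis and from -0.18 to 0.15 in vehicle. In both sets of enzymes vehicle 2 was the lowest array and vehicle 3 the highest vehicle array. The 5 oxygen-sensing genes ran from 0.004 to 0.07 in propolis and from -0.12 to 0.54 in vehicle, with the top on vehicle 3, the 4 transporters from -0.10 to 0.07 in propolis and from -0.12 to 0.11 in vehicle, and the 3 flux regulators from -0.26 to 0.20 in propolis and from -0.03 to 0.12 in vehicle. Over the 32 further HIF genes described at the end, the groups overlapped, at -0.04 to 0.11 in propolis and -0.20 to 0.03 in vehicle. Beside the genes with an unadjusted p under 0.05 or the largest differences, 25 were left, of which 13 had higher and 12 lower means in propolis, between -0.39 and 0.48, with unadjusted limma p of 0.118 or more.

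**Figure D5:**
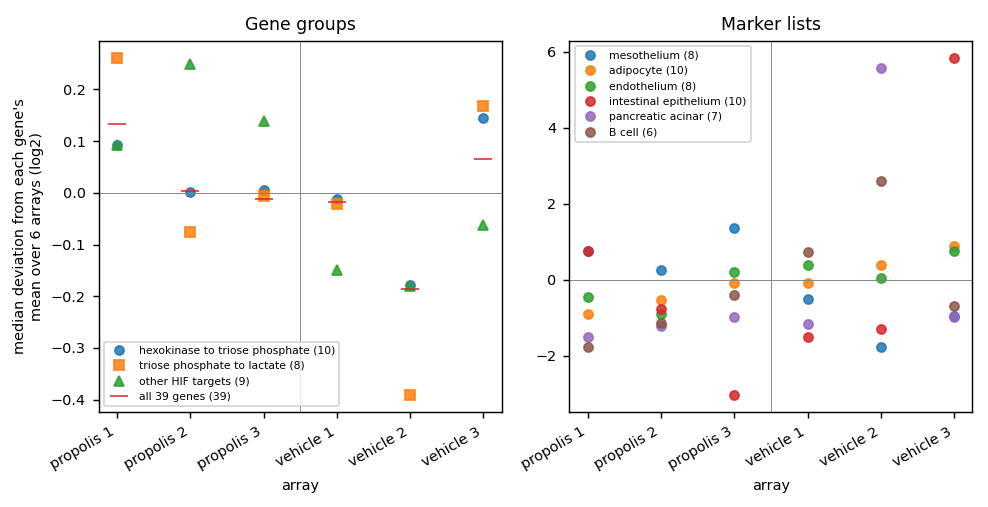
Median deviation of gene groups (left panel) and of marker lists (right panel) from each gene's mean over the 6 arrays (log2), one point for each list and array, with the number of genes in brackets and propolis arrays left of vehicle arrays. The 9 other HIF targets lie from 0.09 to 0.25 in propolis and from -0.18 to -0.06 in vehicle, and pancreatic and intestinal markers peak on vehicle 2 and vehicle 3.

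Neighbouring genes of the same pathways were counted from separate lists. Of 22 further glycolysis and pyruvate genes tested, 0 passed, with 2 at an unadjusted limma p under 0.05, both higher in propolis. These were Pfkfb2, a relative of Pfkfb3, at 0.62 (SE 0.206, limma adjusted p = 0.313) and Adpgk, which phosphorylates glucose with ADP, at 0.72 (SE 0.265, limma adjusted p = 0.365). Of 11 genes of gluconeogenesis and glycogen 0 passed and 0 had an unadjusted limma p under 0.05, the lowest belonging to the glycogen phosphorylase gene Pygl at 0.45, Ppp1r3c at -0.48 and the glycogen synthase gene Gys1 at 0.34. The pentose phosphate pathway, which branches from glucose 6-phosphate, had 5 of 7 means lower in propolis, and of its 7 genes limma passed 0, none of them with an unadjusted p under 0.05. Rpia, Taldo1 and Tkt, of its non-oxidative arm, differed by -0.42, -0.34 and -0.36.

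Of 32 further genes of the HIF pathway, 1 passed, Plod2, and 21 had higher and 11 lower means. Plod2 encodes a lysyl hydroxylase that prepares collagen for cross-linking and is induced by HIF in fibroblasts. It measured 2.97, 2.41 and 2.13 in the propolis arrays, against 0.10, -0.02 and -0.17 in the vehicle arrays. All propolis arrays lay above all vehicle arrays, and Plod2 rose 5.79-fold, a difference of 2.53 (SE 0.254, limma adjusted p = 0.0172), with 2.65 on slide 1 and 2.30 on slide 2. Its difference ran from 2.30 to 2.72 over 18 alternatives, but its call was lost when propolis 2, vehicle 1, vehicle 2 or vehicle 3 was left out, at limma adjusted p of 0.0915, 0.0688, 0.0946 and 0.0574. It was also lost on slide 1 alone (0.0728). Of the 8 mesothelial markers given above, 7 had higher means in propolis and 2 passed limma, and their part in the Plod2 result was not tested. Next by p were Anxa1, encoding the anti-inflammatory protein annexin A1, at -0.57 (SE 0.174, limma adjusted p = 0.258), and the transferrin receptor gene Tfrc at -0.71 (SE 0.266, limma adjusted p = 0.376).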

How the data were processed

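Labelled RNA was read on 1-colour Agilent arrays with Feature Extraction 10.7.3.1, per the submitters' processing notes. Per the file headers, the deposited processed signal is a background-corrected fluorescence intensity on a linear scale. The authors' deposited series table holds log2 values with each array's 75th percentile near 0. Its medians ran from -3.97 to -3.62, its direction and scale followed the scanner values (correlation over 0.99 on each array), and it served as an alternative.

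Signals were turned to log2, non-uniform spots left out, replicate spots averaged, and the array's 75th percentile of probes subtracted. That percentile was 525.8 to 858.9 intensity units before log2, and 61.1% to 66.7% of 59305 spots stood well above background. Probes well above background on at least 3 of 6 arrays entered (34786 of 55681), and the brightest stood for its gene. Symbols came from RefSeq accessions matched to GRCm38.p6, used for names and upstream windows, while the array was designed on mm9. Of 55681 probes, 27235 received a symbol. The propolis and vehicle arrays entered limma 3.58.1 (R 4.3.3) with no blocking factor, and p-values were adjusted by Benjamini-Hochberg over 25777 genes and transcripts. The script was tested on simulated data.

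Genes named with all arrays are those with an unadjusted p under 0.05 or among the 12 with the largest differences, with Ldha, Tpi1, Pkm and Pgk1 added after their values were seen, and of neighbouring lists those that passed or the 3 of lowest p, of which 1 is not reported here. The 39 genes and the lists were chosen with earlier results of these data known. Alternatives covered background correction, scaling, filter, flags, probe rule, variance model, the deposited table, slide or replicate number as a block, only slide 1, and each array left out. Mean signals were not in the scanner tables, so normexp used median signals with an offset of 50. One alternative was chosen after seeing the data, vehicle 1 as the only vehicle array.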

Additional observations from a re-analysis of the deposited data

How the results depend on the processing

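Of the 39 genes, limma called 0 under all settings but normexp background correction, which called 1, Ldhb (1.14, adjusted p = 0.0430). Ldhb kept its direction in all 18 alternatives, with differences from 0.94 to 1.27. Calls over all genes were 215 (186 higher, 29 lower) as reported, and fell to 106 (98 higher, 8 lower) without the filter on dim probes and to 73 (65 higher, 8 lower) with the replicate block, and 313 were called with slide as a block, 57 of them lower. Slide 1 alone, 2 arrays against 2, and vehicle 1 as the only vehicle array each called 0 (0 higher, 0 lower), with 22.7% and 5.28% of genes at an unadjusted limma p under 0.05. Leaving out 1 array gave 11 (without propolis 2 or vehicle 2) to 94 (without propolis 3) calls, 11 to 75 higher and 0 to 22 lower. The count thus fell by over 1.5 times whichever of the 6 arrays was left out. Each such fit has 1 array fewer, so the smaller sample and the values of that array cannot be told apart. Groups of 10 members did not overlap, against 25 on slide 1 alone, 19 with vehicle 1 alone, and 10 to 20 with 1 array left out (20 without propolis 3, 16 without vehicle 3), where 60.4%, 47.7% and 21.5% to 41.8% of all genes did not overlap. The median difference of the members was 0.19 on slide 1 and between 0.001 and 0.15 with 1 array left out.

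For Plod2, outside the 39, the call was lost on slide 1 alone (limma adjusted p = 0.0728), with vehicle 1 alone (0.455) and when propolis 2 or any vehicle array was left out (0.0574 to 0.0946). Small differences changed sign. Quantile normalization gave -0.079 for Pgk1, -0.025 for Eno1, -0.0056 for Pkm and -0.017 for Kdm3a, and a median of -0.02 for the members. Slide 1 alone gave 0.085 for Slc2a1, 0.040 for Aldoa, 0.040 for Ldha, 0.0029 for Pfkfb3, 0.088 for Pfkfb4 and 0.19 for Ankrd37. Vehicle 1 alone gave 0.0091 for Aldoa, 0.11 for Aldoc, -0.065 for Eno1, 0.10 for Ankrd37 and -0.046 for Kdm3a. With 1 array left out the difference ran from -0.12 to 0.11 for Aldoa, -0.29 to 0.0077 for Aldoc, -0.28 to 0.14 for Ankrd37, -0.24 to 1.05 for Egln3, -0.060 to 0.12 for Eno1 and -0.084 to 0.15 for Kdm3a. It ran from -0.16 to 0.065 for Ndrg1, -0.078 to 0.023 for Pfkfb3, -0.32 to 0.018 for Pfkfb4, -0.28 to 0.26 for Pgk1, -0.11 to 0.29 for Pkm, -0.29 to 0.19 for Slc2a1 and -0.36 to 0.00073 for Slc2a3. The cause was not tested.

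No pairing of replicate numbers is stated, but numbers 1 and 2 lay on slide 1 and number 3 on slide 2. Deviations from the group mean correlated at 0.04, 0.29 and 0.14 for numbers 1, 2 and 3. Propolis 2 and propolis 3 correlated best with the vehicle array of the same number, and propolis 1 with vehicle 3 (0.10). These values do not settle whether equal numbers are pairs. The replicate block, with which limma called 73 genes and 0 members, is therefore given only as an alternative. Precision is limited by 3 arrays in each group.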
